A study of Mus musculus with 2 samples.

Results

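The heat shock genes described here are a set of 10 mouse genes of the HSP70, HSP90 and small heat shock protein families with their partners: Hspa1a, Hspa1b, Hspb1, Dnajb1, Hsph1, Hspa8, Hsp90aa1, Hsp90ab1, Bag3 and Hsf1. They were chosen by the measured ratio between the arrays of this series, in which Hspa1a and Hspa1b were the lowest genes, and the constitutive chaperones were set beside the inducible ones. A probe set was taken where the platform annotation gives it exactly 1 gene symbol, and 8 of the 10 genes had such a probe set, among 18193 genes in all. For Hsp90ab1 and Hsf1 no probe set is named here, and they were not analysed. The other 8 genes had 20 probe sets, and no probe set named one of them together with another gene. Because the choice rests on the same comparison that is reported below, the values describe these genes and test nothing.

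The series asked which genes the plant compound triptolide affects in activated T cells. Primary mouse T cells were purified and cultured for 18 h, and biotin-labelled RNA was hybridised to Affymetrix 3′ expression arrays. The stimulated group received antibodies to CD3 and CD28, which together mimic antigen recognition and costimulation, and no triptolide. The other group, called the triptolide array here, received the same antibodies and triptolide at 50 ng/ml. Each group is 1 array, so there is no SD, standard error or p-value between them, and a difference between these 2 samples cannot be told apart from variation between cultures. The sources used here name no mouse strain, age or number of animals, no vehicle and no length of exposure to triptolide, and an unstimulated sample was not analysed here.

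Heat shock proteins are molecular chaperones that bind unfolded or nascent proteins and help them fold, or hand them on for degradation. HSP70 works in cycles of ATP hydrolysis that J domain (HSP40) proteins start and that nucleotide exchange factors, among them HSP110 and BAG proteins, end. HSP90 completes the folding of kinases, receptors and transcription factors, while small heat shock proteins hold unfolded proteins without using ATP. Heat shock factor 1, the product of Hsf1, binds heat shock elements, which are inverted repeats of the unit GAA, and drives the inducible members when unfolded proteins accumulate. In T cells HSP90 is known for holding the receptor-proximal kinase LCK in an active form.

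The promoter windows of 4 of the genes are printed here, because they let the genes with the largest and with small differences be read side by side. The pair Hspa1a and Hspa1b had the lowest ratios, Hspb1 the next lowest of the set, and Hsph1 a ratio within 2-fold. Each window runs from 250 bases before to 50 bases after a RefSeq transcription start, 5′ to 3′ on the gene's strand, in build GRCm38.p6: chr17:34972107-34972406 on the minus strand, chr17:34959189-34959488 on the minus strand, chr5:135887669-135887968 on the plus strand and chr5:149636266-149636565 on the minus strand, the last being the lower in coordinates of 2 overlapping windows. Capitals mark inverted pairs of heat shock units, GAANNTTC or TTCNNGAA, each of which reads the same on both strands.
Hspa1a: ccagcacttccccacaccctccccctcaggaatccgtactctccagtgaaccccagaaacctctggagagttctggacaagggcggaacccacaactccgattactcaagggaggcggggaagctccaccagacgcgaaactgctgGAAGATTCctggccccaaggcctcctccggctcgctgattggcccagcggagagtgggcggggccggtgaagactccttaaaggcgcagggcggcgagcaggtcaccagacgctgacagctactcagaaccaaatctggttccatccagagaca
Hspa1b: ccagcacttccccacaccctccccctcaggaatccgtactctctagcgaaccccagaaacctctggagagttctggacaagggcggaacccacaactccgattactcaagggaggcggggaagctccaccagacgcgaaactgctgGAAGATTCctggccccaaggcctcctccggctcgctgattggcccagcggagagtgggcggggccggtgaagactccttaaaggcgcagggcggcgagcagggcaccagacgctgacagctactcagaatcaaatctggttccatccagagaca
Hspb1: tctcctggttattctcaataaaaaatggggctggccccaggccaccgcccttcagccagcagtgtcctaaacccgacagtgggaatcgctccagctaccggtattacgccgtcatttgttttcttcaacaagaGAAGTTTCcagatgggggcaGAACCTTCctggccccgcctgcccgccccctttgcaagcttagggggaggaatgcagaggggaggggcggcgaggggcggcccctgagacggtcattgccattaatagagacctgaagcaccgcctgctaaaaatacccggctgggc
Hsph1: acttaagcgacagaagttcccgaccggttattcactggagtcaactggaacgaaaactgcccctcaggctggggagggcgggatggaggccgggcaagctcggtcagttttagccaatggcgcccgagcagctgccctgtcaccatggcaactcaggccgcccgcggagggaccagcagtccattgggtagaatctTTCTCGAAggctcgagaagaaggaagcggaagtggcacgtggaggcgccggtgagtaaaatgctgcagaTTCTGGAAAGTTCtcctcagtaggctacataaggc

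The windows of Hspa1a and Hspa1b were identical at 296 of 300 positions. The 4 differences, counted from 1 at the 5′ end of the window with the base of Hspa1a first, were C44T, T47C, T249G and C276T. Both held the same heat shock pair, which starts 104 bases before the transcription start. The window of Hspb1 held 2 such pairs, 117 and 97 bases before the start. That of Hsph1 held 3, starting 54 bases before and 16 and 21 bases after the start, and the last 2 overlap to give 3 alternating units. Bag3 had 1 pair, 43 bases after its start, and neither of the 2 windows of Dnajb1 had one. The RefSeq table had a window for 6 of the 10 genes, and none for Hspa8, Hsp90aa1, Hsp90ab1 and Hsf1.

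An inverted pair was thus present in 5 of the 6 genes with a window, counting the near-identical windows of Hspa1a and Hspa1b separately. It was present in 17% of all 27025 genes with a window, or 15.1% of all 32851 windows, and in 21 of 91 other chaperone genes (23.1%). The form with 3 alternating units, searched on both strands, was present in Hsph1 alone of the 6 and in 0.662% of all genes with a window. The TATA letters TATAAA, searched on both strands, were in none of the 6 and in 15.7% of all genes with a window. CCAAT on either strand was in 4 of the 6 and in 41.1% of those genes. GGGCGG on either strand was in 6 of 6, in 38.2% of those genes and in 71 of 91 other chaperone genes (78%). These matches describe letters only, and 6 genes are too few to relate them to the size of a difference. Hspa1b, Hspa1a and Hspb1, the lowest of the set, each held a pair, as did Hsph1, which lay within 2-fold, and Bag3, whose difference is not resolved. Dnajb1, without a pair, lay at 2-fold.

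All expression values below are MAS5 signals, 1 per probe set and array. A background floor of 118 was taken from 87 probe sets of chemosensory receptor genes, which T cells are not known to use. Lower signals were raised to that floor before ratios were formed, and a fold with 1 side at the floor is a lower bound, written "at least". A log2 ratio is that of the triptolide over the stimulated array, and each gene is given by the probe set whose floored log2 signal was highest on average over both arrays, its representative probe set. The median log2 ratio of the 10968 genes above the floor on at least 1 array, called detected, was -0.16, so values are best read against that shift. As a guide to agreement between probe sets, the SD between the brightest 2 of a gene was 0.49 per probe set (log2) over 3733 genes. It was 0.36 over 1574 genes with both probe sets above 4 times the floor on both arrays. Both probe sets are read on the same arrays, so this SD leaves out variation that an array or culture gives to all its probe sets.

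Markers of T cells were checked first, as the label of the cells demands. Of 12 such genes 11 had a named probe set and all 11 were detected, with summed signals of their representative probe sets of 67845 on the stimulated and 45462 on the triptolide array. Of the 11, 9 had ratios below 0 (median log2 ratio -0.50). Lower by 2-fold or more were 4 (36.4%, against 12.5% of all detected genes): Cd8a (-1.60), Cd28 (-1.55), Cd2 (-1.34) and Cd4 (-1.28). The T cell receptor subunit genes Cd3d and Cd3e stayed within 2-fold (11426 and 9733, and 2881 and 3962). Of the B cell list 7 of 8 measured genes were detected (sums 5013 and 6211), of the myeloid list 7 of 10 (5368 and 7425), of the natural killer cell list 2 of 4 (755 and 1195) and of the stromal list 0 of 5. The B cell factor gene Pax5, the monocyte gene Cd14 and the natural killer receptor gene Ncr1 were under the floor on both arrays. Within the B cell list 5 of the 7 detected genes had ratios below 0 (median -0.71). Lower by 2-fold or more were 3 (42.9%, against 12.5% of all detected genes): H2-Ab1 (-1.57), Blnk (-1.37, a bound) and Cd22 (-1.05). The higher sum of the B cell list rests on Cd74 (2190 and 4385), its only gene higher by 2-fold or more. Of the natural killer cell genes Klrd1 gave 489 and 966 and Klrk1 246 and 183. All 7 detected myeloid genes had ratios above 0 (median 0.26), and most of both myeloid sums came from Ctss (4321 and 5971). Of the 7 only Lyz2 was higher by 2-fold or more (14.3%, against 5.63% of all detected genes). Lyz2 gave 72.2, under the floor, and 259.5, at least 2.19-fold higher. The part of cell composition in the values below was not tested. In such bulk samples fewer cells of a type and less RNA per cell cannot be told apart.

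The inducible HSP70 genes Hspa1a and Hspa1b differed most. They encode near-identical cytosolic HSP70 proteins that are made in quantity under proteotoxic stress. The 3 probe sets of Hspa1b gave signals of 15768, 10808 and 10577 on the stimulated array. With triptolide the same probe sets gave 229, 287.5 and 237. All 3 stayed above the floor of 118, and their log2 ratios were -6.10, -5.23 and -5.48, so that Hspa1b was 68.8-fold lower on its representative probe set. The single probe set of Hspa1a gave 5668 without and 114 with triptolide, just under the floor. Hspa1a was thus at least 47.9-fold lower (log2 ratio -5.58 on the floored signal).

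All 4 probe sets of the pair lay between log2 ratios of -6.10 and -5.23. They cannot be taken as 4 independent measurements, since the transcripts are so alike that probes of one may capture the other, and the representative probe set of Hspa1b has the suffix _x_at, which Affymetrix gives to sets with probes that match other sequences. On floored signals Hspa1b and Hspa1a had the 2 lowest ratios of the 10968 detected genes, which is how they were chosen. The order of Hspa1a among the lowest genes is not known, since its ratio is a bound. The 3 other genes with the lowest ratios on floored signals were the cytokine gene Il17a at a log2 ratio of -4.51, also a bound because its triptolide signal of 67.0 was under the floor, the metal-binding metallothionein gene Mt1 at -3.90 and the inhibitory receptor gene Ctla4 at -3.83. The likeness here is that of a single ratio between 2 arrays. In the RefSeq gene order Hspa1b, Hspa1a and Hspa1l, an HSP70 gene known from testis, are consecutive protein-coding genes on chromosome 17. Hspa1l, given here as their neighbour, was under the floor on both arrays (6.60 and 79.8), so nothing can be said of a difference.

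**Figure D1:**
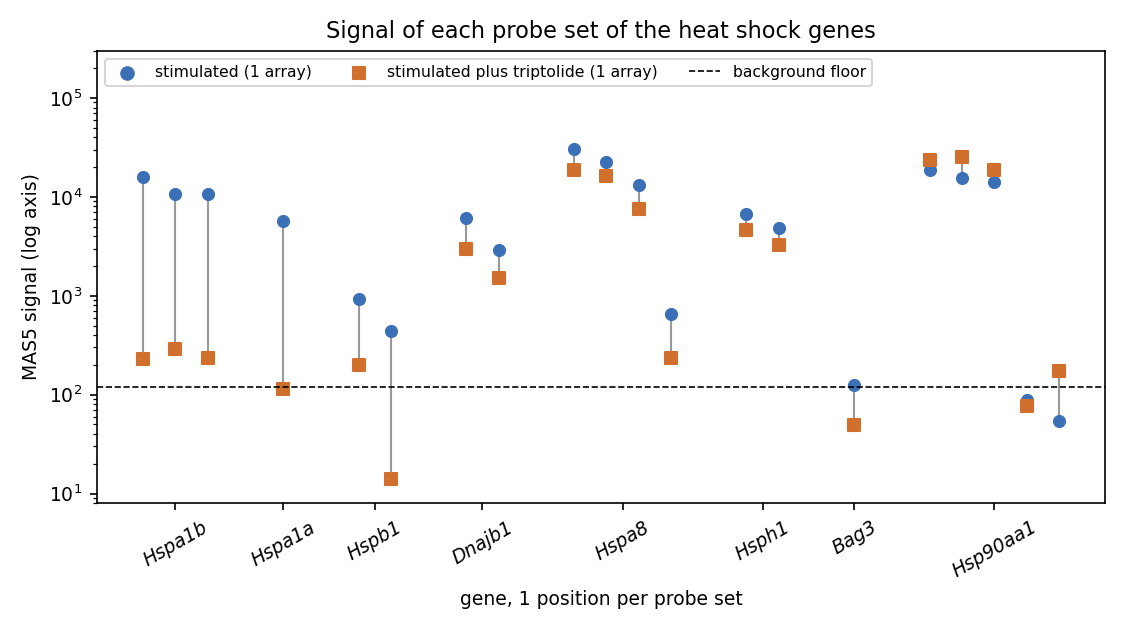
MAS5 signal (log axis) of each of the 20 probe sets of the 8 heat shock genes on the stimulated array (blue circles) and on the triptolide array (orange squares), joined by a grey line, with the background floor of 118 dashed. The 4 probe sets of Hspa1b and Hspa1a drop from 5668 or more to the neighbourhood of the floor, those of Hsph1 and the 3 bright ones of Hspa8 are lower by less than 2-fold, and the 3 bright probe sets of Hsp90aa1 lie higher with triptolide.

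The small heat shock gene Hspb1 encodes HSP27 (HSP25 in mouse), an ATP-independent chaperone that also acts on actin. Its representative probe set gave 917 on the stimulated and 202 on the triptolide array, which is 4.55-fold lower (log2 ratio -2.19). The other probe set gave 435.5 and 14.1, and since the second value is under the floor it was at least 3.68-fold lower (-1.88). Both probe sets of Hspb1 therefore went the same way, and since one of the values is a bound their sizes cannot be compared. Hspb1 ranked 96 from the lowest among the detected genes. On the representative probe set its signal was 7.75 times the floor without and 1.70 times the floor with triptolide.

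Dnajb1 encodes the stress-inducible J domain protein HSP40, which delivers clients to HSP70 and starts its ATP cycle. Its probe sets gave 6053 and 2911 on the stimulated array and 2997 and 1512 on the triptolide array. Both were lower by nearly the same factor, with log2 ratios of -1.01 and -0.95, so the 2.02-fold value of the representative probe set lies on the limit of 2-fold and its second probe set just inside it. With both arrays centred on their median the ratio of Dnajb1 was -0.89, with quantile normalization -0.88, and with the median over its probe sets -0.98.

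Hsph1, the HSP110 that serves HSP70 as nucleotide exchange factor, gave 6666 and 4895 without and 4654 and 3249 with triptolide. Both probe sets were lower, at log2 ratios of -0.52 and -0.59, which is 1.43-fold lower on the representative one. That lies 0.36 below the median of all detected genes and is as large as the spread between bright probe sets. Bag3, a BAG domain partner of HSP70 that steers clients to autophagy, gave 125.0 without and 49.9 with triptolide on its only probe set. The first value is close to the floor and the second under it, so the bound was 1.06-fold and no difference could be resolved. Bag3 counted as detected only through the stimulated array.

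Hspa8 encodes HSC70, the constitutive HSP70 of the cytosol. Its 3 bright probe sets gave 30623, 22590 and 13068 on the stimulated array. They gave 18551, 16417 and 7469 on the triptolide array, at log2 ratios of -0.72, -0.46 and -0.81. The last probe set was dim and gave 660.5 and 237, at -1.48. All 4 were lower, and the representative value was 1.65-fold lower. The dim probe set alone passed 2-fold, and it is the only one of the 4 that stays when probe sets with the suffixes _a_at, _s_at and _x_at are left out, in which case Hspa8 counts as at least 2-fold lower.

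Scaling an array by 1 factor does not alter the difference between the ratios of any 2 genes above the floor. The log2 ratio of the inducible Hspa1b minus that of the constitutive Hspa8 was -5.38, and for Hspa1a, with its floored signal, the same difference was -4.86. For Hspb1 the difference from Hspa8 was -1.46, for Dnajb1 -0.29 and for Hsph1 0.20. The last 2 differences are within the spread between probe sets. The ratios of Hspa1b and Hspa8 were unequal on these 2 arrays. Since Hspa1a and Hspa1b were chosen for their low ratios in this same comparison, nothing is read from that gap. The ratios of Dnajb1 and Hsph1 lay close to that of Hspa8. For Bag3 the difference is not resolved.

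Hsp90aa1 encodes HSP90 alpha, the stress-responsive of the cytosolic HSP90 proteins. It was the one gene of the set with a ratio above 0. Its 3 bright probe sets gave 18618, 15629 and 14278 without triptolide. With triptolide they gave 23513, 25578 and 18682, at log2 ratios of 0.34, 0.71 and 0.39. The representative value was 1.26-fold higher, which lies 0.50 above the median of all genes and within 2-fold. A dim probe set gave 54.6, under the floor, without triptolide and 173.6 with it (0.55 on floored signals), and the last was under the floor on both arrays (87.6 and 76.0). Relative to Hspa8 the log2 ratio of Hsp90aa1 was 1.06 higher.

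**Figure D2:**
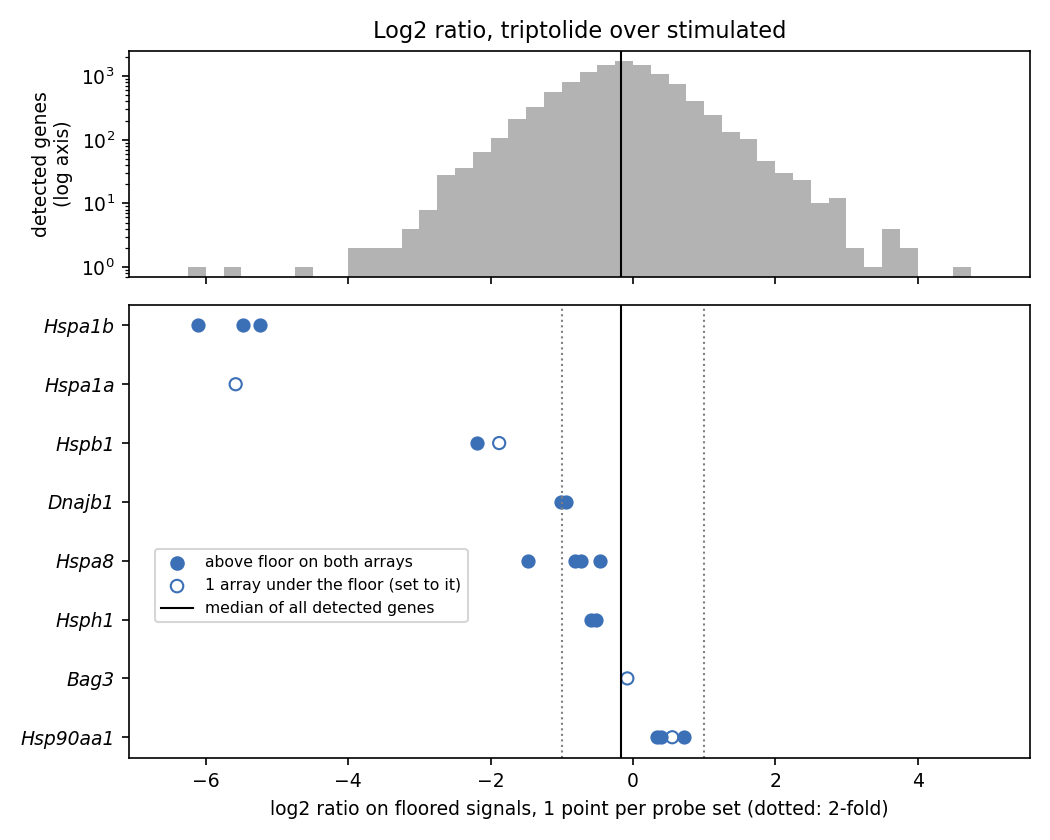
Upper panel, number of detected genes (log axis) by log2 ratio of the triptolide over the stimulated array, with their median of -0.16 as a black line. Lower panel, the log2 ratio of each probe set of the 8 heat shock genes that was above the floor on at least 1 array, filled where it was above on both and open where 1 signal was set to the floor, with dotted lines at 2-fold. The probe sets of Hspa1b and Hspa1a lie at the lower end of all genes, and those of Hspa8 range from -1.48 to -0.46.

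In all, 4 of the 8 genes with a probe set were lower by 2-fold or more with triptolide, against 12.5% of all detected genes. None of the 8 was higher by as much, against 5.63% of all detected genes. At least 4-fold lower were 3 of the 8, against 1.36% of all detected genes. Since the set was built around the lowest genes of this same comparison, nothing is read from these shares. The median log2 ratio of the 8 genes was -0.87, against -0.16 over all detected genes. Of the 20 probe sets 19 were above the floor on at least 1 array, of which 15 were lower and 4 higher, and all 4 higher ones belong to Hsp90aa1. At least 2-fold lower were 8 of these probe sets, against 12.8% of all detected probe sets: 4 of Hspa1b and Hspa1a, both of Hspb1, and 1 each of Dnajb1 and Hspa8. With Hspa1a and Hspa1b counted as 1 gene, 3 genes were at least 2-fold lower.

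The rest of the chaperone machinery was described from 7 lists of other chaperone genes. Of 109 listed genes 105 had a named probe set and 92 were detected. Lower by 2-fold or more were 6 of the 92 (6.52%), and 3 (3.26%) were higher by as much, both shares below those of all detected genes. Their median log2 ratio was -0.27, and 83 of them stayed within 2-fold. With a doubled floor 3 of 85 detected genes were lower by 2-fold or more, against 11.8% of all detected genes in that setting. Among genes that reach 4 times the floor on at least 1 array 3 were lower by as much. For that setting no share over all genes is given here. The count of 6 thus rests in part on dim genes.

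All 9 detected other HSP70 and HSP110 genes lay within 2-fold, and their median log2 ratio was -0.25. The lowest were Hspa4l, an HSP110 relative, at -0.85, whose 4 detected probe sets reached from -0.85 to 0.64, and Hspa2 at -0.59 near the floor (230 and 153). The highest were Hspa13 at 0.26, of whose 4 probe sets 3 were lower, and Hspa5, the HSP70 of the endoplasmic reticulum, at 0.14. The other HSP90 genes were Hsp90b1 of the endoplasmic reticulum, at -0.36, and the mitochondrial Trap1, at 0.66 on one probe set and -0.11 on the other. Of 8 other small heat shock genes, 6 were under the floor on both arrays, among them the crystallin gene Cryab. The 2 detected ones were Hspb6, close to the floor (131 and 160) at a log2 ratio of 0.29, and Hspb8. Hspb8 gave 40.7, under the floor, and 129.8, so its log2 ratio of 0.13 on floored signals is a bound. Hspb1 was thus the only one of 9 small heat shock genes with a signal above 2 times the floor.

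Among 35 detected J domain genes besides Dnajb1, 4 were lower and 2 higher by 2-fold or more (median -0.30). These shares, 11.4% and 5.71%, were near those of all detected genes, 12.5% and 5.63%, so nothing is read from the counts. Dnajc27, a RAB-like gene with a J domain, was at least 3.68-fold lower (435.5 and 28.2) and Dnajb12, which acts at the membrane of the endoplasmic reticulum, at least 3.21-fold lower (380 and 117.6). Dnajc21, which takes part in ribosome assembly, was 2.63-fold lower with all 3 detected probe sets lower. Dnaja4 was 2.01-fold lower on its representative probe set, but 1 of its 3 probe sets was higher (0.32). The highest were Dnajb2, 2.79-fold (216 and 603), and Dnajb9, a cochaperone of the endoplasmic reticulum, 2.57-fold (690 and 1774), each on a single probe set.

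The 11 partners of HSP70 had a median of 0.25, and BAG genes stood at both ends. Bag2, whose product acts with HSP70 and inhibits the ubiquitin ligase CHIP, was 6.11-fold lower (806 and 132), and Bag1, the founding BAG gene and a partner of BCL2, was 2.28-fold higher (2137 and 4864). Each rests on 1 probe set, and the triptolide signal of Bag2 was near the floor, at 1.11 times its value. Bag4 was next lowest at -0.53 and Bag6 next highest at 0.66. Of 17 detected HSP90 cochaperone genes 1 was at least 2-fold lower (5.88%, against 12.5% of all detected genes). It was Rpap3, part of the R2TP assembly complex, at 2.86-fold (1005 and 351). Stip1, the adaptor between HSP70 and HSP90, followed at -0.90. The highest were Unc45a at 0.29, with a second probe set at -0.35, and Tsc1 at 0.11. The median of these cochaperones was -0.28.

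The 16 detected chaperonin and prefoldin genes, which fold actin and tubulin or serve in mitochondria, all stayed within 2-fold, and 14 had ratios below 0 (median -0.30). The lowest were Pfdn4 at -0.79 and Cct6a at -0.74, and the highest Cct7 at 0.24 and Cct3 at 0.19, the latter with 3 of 6 detected probe sets lower. The heat shock factor list, which holds other members of that family and known regulators of heat shock factor 1, had 9 detected genes, all within 2-fold, with a median of 0.25. Hsf4 had the lowest ratio, -0.51 near the floor (209.5 and 147), followed by the deacetylase gene Hdac6 at -0.40. The deacetylase gene Sirt1 had the highest, 0.81, followed by the acetyltransferase gene Ep300 at 0.63. Hsf2, which can pair with heat shock factor 1, was near background (97.4 and 140.9).

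**Figure D3:**
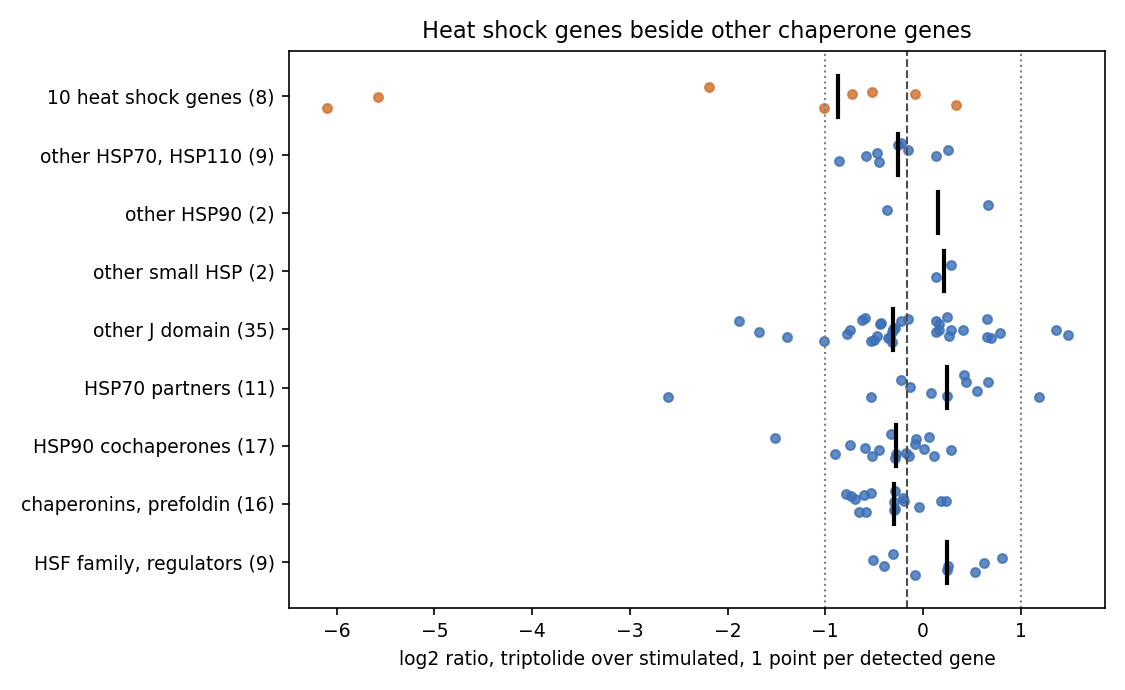
Log2 ratio of the triptolide over the stimulated array for each detected gene (1 point) of the heat shock set (orange) and of the other chaperone and heat shock factor lists (blue), with the number of detected genes in brackets, medians as black bars, the median of all detected genes dashed and 2-fold dotted. Points are spread vertically for legibility, and 2 genes of the heat shock set lie below -5 while the lowest gene of the other lists lies at -2.61.

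The ratios of the 8 genes were recomputed under other scalings, floors and probe set choices. Hspa1b ranged from -6.20 to -5.23 and Hspa1a from -5.68 to -4.58, the last with a doubled floor that moves the bound. Hspb1 ranged from -2.28 to -1.95, Dnajb1 from -1.11 to -0.88, Hsph1 from -0.61 to -0.39 and Hsp90aa1 from 0.24 to 0.47. Each of these genes kept its direction in every setting that gave it a value. Hspa8 was below 0 throughout, from -1.48 to -0.60. Bag3 ranged from -1.32 without a floor to 0, so its value is set by the treatment of signals near background.

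**Figure D4:**
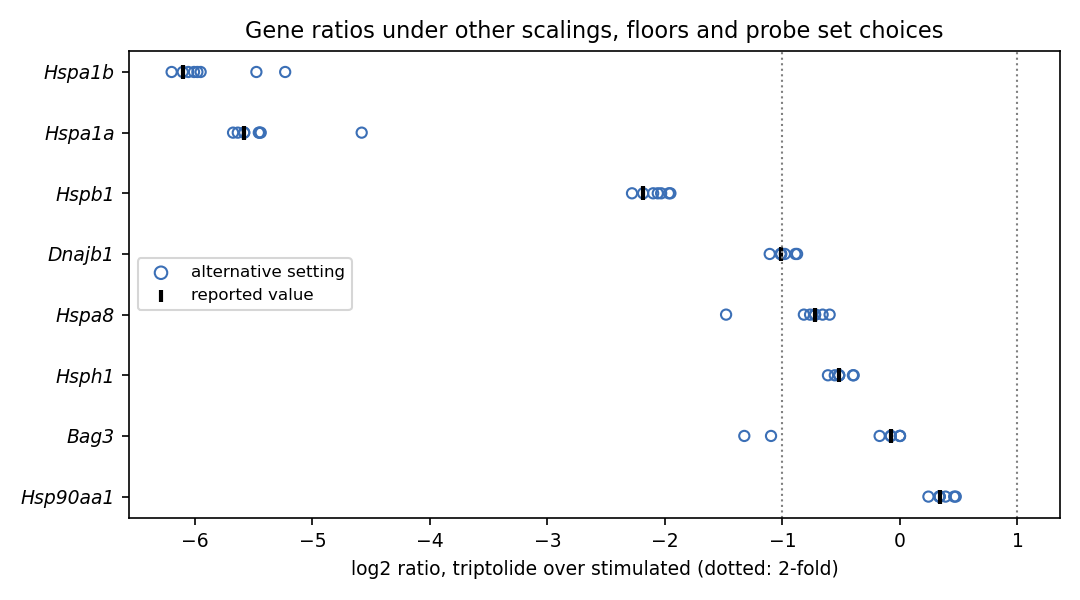
Log2 ratio of the triptolide over the stimulated array for each of the 8 heat shock genes, with 2-fold dotted. Black bars give the reported value and open circles 8 alternative scalings, floors and probe set choices. Hspb1 and Hsph1 have 7, since no probe set of theirs stays when the suffixes _a_at, _s_at and _x_at are left out. Hspa1b, Hspa1a and Hspb1 lie beyond 2-fold in each setting shown, Dnajb1 lies around the limit, and Bag3 spans from 0 to beyond it.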

How the data were processed

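Per the submitters' processing notes, the authors computed signals with MAS5, and they deposited 1 linear intensity per probe set and array; its version and scaling settings are unknown here. The trimmed mean (2% at each end) of the first 100 probe sets was 2000 on both arrays, against 383 and 340 over all 45037, so ratios assume that those 100 did not change. The platform annotation gave 1 gene symbol to 34945 probe sets. Of these, 34741 were found by gene identifier in RefSeq (GRCm38.p6), the source of the promoters, and took the symbol given there.

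The floor was the 95th percentile of the chemosensory probe sets (107 and 118, the higher used). With 1 array per group no test was made, and genes were counted by a fold of 2. The members and lists were chosen with earlier results of these data known. Named were the 8 genes with all probe sets, the 2 lowest and 2 highest genes of each list with any beyond 2-fold, and the 3 other genes of lowest ratio. Marker genes, Cryab, Hsf2 and Hspa1l were named after their values were seen. Alternatives were 3 scalings, 3 treatments of the floor (none, doubled, a pseudocount of 16) and the median over probe sets. Further ones were no probe sets with the suffixes _a_at, _s_at and _x_at, the HSP70 pair as 1 gene, and brighter genes only. Leaving out Bag3 was added after seeing the data. The gene summary was tested on simulated data. Python 3.11.15, numpy 2.4.6, pandas 2.3.3 and matplotlib 3.10.9 were used. The number of arrays, 2, limits the precision.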

Additional observations from a re-analysis of the deposited data

How the results depend on the processing

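Of 47 recomputed counts and medians of the heat shock set and the other chaperone genes, 45 stayed near the reported value (counts within 1.5 times, medians within the robust SD of 0.39 between probe sets). The exceptions were the other chaperone genes at least 2-fold lower, 6 as reported, which numbered 3 with a doubled floor and 3 among genes of at least 4 times the floor. The heat shock genes at least 2-fold lower, 4 of 8 as reported, were 3 of 7 with centring or quantile normalization. They were 4 of 6 without the suffixes _a_at, _s_at and _x_at and 5 of 8 without a floor. Those at least 2-fold higher numbered 0 in every setting, which counts as unchanged. The median of the set ran from -1.25 to -0.72. Of the 62 recomputed ratios of single genes, none reversed. Dnajb1 passed inside 2-fold in 3 settings, and Bag3 went beyond 2-fold without a floor (-1.32) or with a pseudocount (-1.10). Hspa8 went beyond 2-fold (-1.48) where the suffixes _a_at, _s_at and _x_at were left out, which leaves only its dim probe set. Without Bag3, a choice made after seeing the data, 4 genes were at least 2-fold lower.

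The median ratio of all detected genes moved from -0.16 to -0.05 with centring and to 0.0050 with quantile normalization. It moved the other way, to -0.24, with scaling on housekeeping genes and to -0.21 without a floor. Genes at least 2-fold lower and higher were 14.7% and 4.72% with housekeeping scaling and 18.3% and 9.97% without a floor. Genes at least 2-fold lower and higher, 12.5% and 5.63% as deposited, were 9.90% and 7.11% with centring and 8.43% and 8.12% with quantile normalization, settings that force a common median or distribution on the arrays. Hspb1 and Hsph1 have no value when probe sets with the suffixes _a_at, _s_at and _x_at are left out. No paired analysis was possible because each group is 1 array. Signal near background limits Bag3, the other small heat shock genes and the size of the Hspa1a difference.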
